A study of Mus musculus with 11 samples.

Results

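The oxidative phosphorylation genes encode the proteins of the respiratory chain and of the ATP synthase in the inner mitochondrial membrane. They were taken from the deposited table of 24294 gene symbols by name. The 13 protein-coding genes of the mitochondrial genome were taken whole. To these were added the nuclear symbols beginning with Ndufa, Ndufb, Ndufc, Ndufs or Ndufv (without the Ndufaf assembly factors), Sdha to Sdhd, and those beginning with Uqcr, Cox4i, Cox5, Cox6, Cox7, Cox8 or Atp5. A symbol ending in -ps was left out, and a mean of at least 1 FPKM over the libraries was required. FPKM is the number of fragments per kilobase of gene, scaled to the library's total of fragments. The rule gave 96 genes, 83 nuclear and 13 mitochondrial. Of 89 matching nuclear symbols, 6 were under the mean of 1 FPKM, and the nearest to it were Cox4i2 at 0.882, Cox6a2 at 0.875 and Ndufa4l2 at 0.788. The lowest members were Ndufb4c at 2.15, Ndufs6b at 4.08 and Ndufb4b at 4.36 FPKM. All 96 passed the filter for testing.

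Complexes I and II feed electrons from NADH and succinate to ubiquinone, complex III hands them on to cytochrome c, and complex IV, cytochrome c oxidase, passes them to oxygen. Complexes I, III and IV pump protons as they do so, and complex V, the ATP synthase, uses the returning protons to make ATP. Complexes I, III, IV and V are built from subunits of both genomes, while all subunits of complex II are nuclear. In the intestine this ATP pays for the ion gradients that drive nutrient uptake and for the packing of absorbed fat.

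Small intestine RNA of mice gave 11 sequenced libraries: the ND group has 3, the HFD group 4 and the HLJDD group 4. The series title speaks of Huang Lian Jiedu Decoction, obese mice and the release of gastric inhibitory polypeptide, while the labels neither spell out ND and HFD nor give the diet under HLJDD, the strain, sex or age of the mice, or the stretch of intestine taken. No label says that the libraries of a group came from separate mice, so a p-value here weighs a difference against library-to-library spread that may be technical. In whole tissue, fewer cells of a type and less RNA per cell cannot be told apart.

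The depth, recovered from the FPKM values, ran from 30100481 to 37940645 reads per library. The mitochondrial share of the reads was 32.4% for HFD replicate 1, 40.7% for HLJDD replicate 2 and 10.4 to 19.3% for the other 9. Because FPKM divides by the library's total, a high mitochondrial share lowers the values of other genes in that library. The median log2 change of all 10764 tested genes was -0.205 for HFD against ND. Median-ratio scaling, which divides each library by its typical ratio to the others, brought it to -0.00, and counts are given on both scales. The libraries also differed in markers of position along the intestine. The proximal markers summed to 772, 3270 and 7467 FPKM in ND, against 26793 to 34948 in HFD and 21309 to 36808 in HLJDD. Distal markers summed to 11685, 8228 and 1328 in ND, against 313 to 457 in HFD and 257 to 459 in HLJDD. Each list had 9 genes, of which 7 were tested. In HFD against ND the proximal list had 5 higher and 1 lower (Slc40a1), and the distal list 6 lower. The counts for HLJDD against ND were 5 higher and 1 lower, and 7 lower. The proximal marker Pdx1 and the distal markers Insl5 and Hoxb13 were at 0 in some libraries. Their part in the differences below was not tested.

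Nuclear subunits took a larger share of the reads outside the mitochondrial genome in HFD and HLJDD than in ND. Their FPKM values summed to 15913, 18475 and 21233 in the 3 ND libraries, to 20270, 21888, 22100.5 and 23656 in HFD, and to 22372, 19397, 22356 and 24153 in HLJDD. On this scale the highest ND library overlapped the lowest library of each other group. Counted in recovered reads and not in FPKM, the nuclear members took 1.72, 1.94 and 2.19% of all reads outside the mitochondrial genome in ND. They took 2.44, 2.31, 2.38 and 2.50% in HFD, and 2.36, 2.71, 2.29 and 2.55% in HLJDD. By that share all ND libraries lay below all libraries of both other groups.

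The ND libraries also differed among themselves in the same direction for nearly every nuclear member. Replicate 1 was the lowest of the group for 83 of 83 members, against 39.2% of all tested genes. Replicate 3 was the highest for 82 of 83, against 32.01% of all tested genes. The proximal marker sum ran in the same order over these libraries, lowest in replicate 1 and highest in replicate 3, and the distal sum in the opposite order. What this had to do with the members was not tested.

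**Figure D1:**
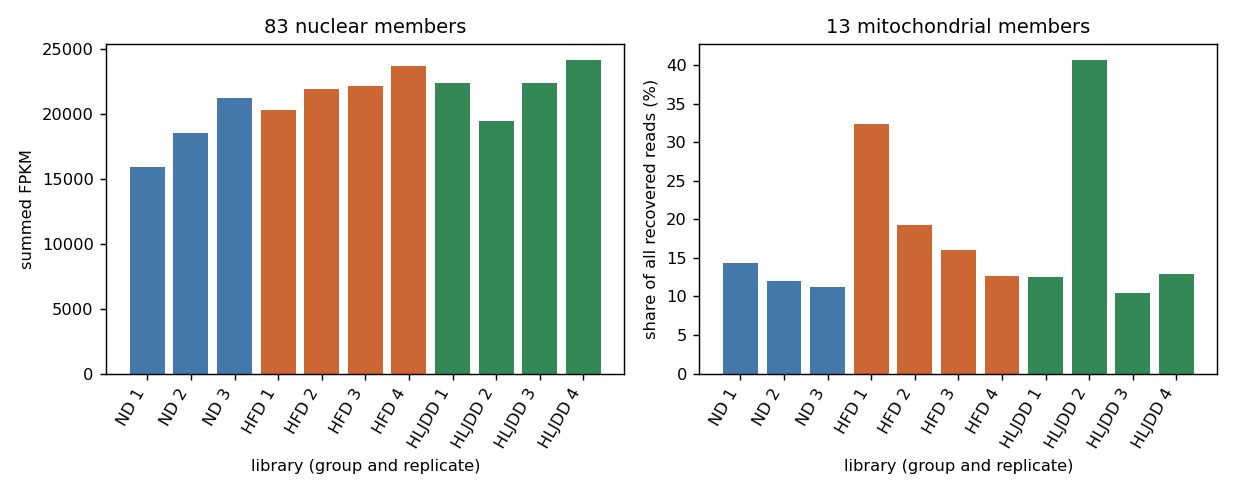
The 83 nuclear members as summed FPKM and the 13 mitochondrial members as a share of all reads, in each of the 11 libraries by group. The nuclear sums overlapped between groups, with ND replicate 3 (21233) above HFD replicate 1 (20270) and HLJDD replicate 2 (19397). HFD replicate 1 and HLJDD replicate 2 stood apart in the mitochondrial share of all reads (32.4 and 40.7%). They also did so in the ratio of mitochondrial to nuclear summed FPKM, which is not drawn (12.1 and 16.1).

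The first comparison asked what differed between HFD and ND intestine. Of 83 nuclear members, 17 were higher in HFD and 0 lower (20.5% higher, against 5.06% higher and 11.5% lower over all tested genes; limma on log2(FPKM + 1), Benjamini-Hochberg adjusted p under 0.05). The median change was 0.28 on the log2 scale, and 66 of 83 were positive. For 28 members (33.7%) every HFD library lay above every ND library, against 9.57% of all genes, and for 0 members did the groups separate the other way, against 32.9%. Median-ratio scaling gave 36 higher members and none lower (43.4%, against 11.6% of all genes higher and 11.4% lower), with a median of 0.54. With equal sums outside the mitochondrial transcripts 32 were higher (8.44% of all genes higher, 23.3% lower). Counts moved with the libraries used. Without ND replicate 1 there were 2, without ND replicate 2 there were 3, without HFD replicate 1 there were 8, without HFD replicate 2 or 3 there were 7 each, without HLJDD replicate 1 there were 10, and without both libraries of high mitochondrial share there were 29 (9.41% of all genes higher, 21.7% lower). The scaled count was 4 without ND replicate 1, 6 without ND replicate 2, 55 without ND replicate 3, 16 without HFD replicate 1 and 22 without HFD replicate 3.

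Cox7a1 and Ndufa1 were called under each of 21 other settings of scale, filter, fit or libraries for HFD against ND, with adjusted p up to 0.00727 and 0.0403. The other 15 called members lost the call without ND replicate 1, and all of those but Cox6b2 also without ND replicate 2. Atp5j and Ndufc1 lost it nowhere else, and Atp5h only with the replicate block besides. Without HFD replicate 2, and likewise without HFD replicate 3, the calls of Cox5b, Cox6a1, Cox7b, Ndufa10, Ndufb3, Ndufb7, Ndufs8, Ndufv3 and Uqcrq ended (limma adjusted p at or over 0.05). Ndufa5 was lost as well without the former and Ndufb4 without the latter. Without HFD replicate 1 the calls of Cox5b, Cox7b, Ndufa5, Ndufb3, Ndufb4, Ndufb7, Ndufs8, Ndufv3 and Uqcrq ended.

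The calls fell in every complex except II. Over all genes 5.06% were called higher. Complex I had 9 of 41 higher (22%) with a median log2 change of 0.29, and complex III 1 of 8 (12.5%) with 0.16. Complex IV had 5 of 13 (38.5%) with 0.29 and complex V 2 of 17 (11.8%) with 0.19. Complex II had 0 of 4 by limma with a median of 0.05, and 1 at an unadjusted p under 0.05. With median-ratio scaling the counts were 20, 2, 2, 6 and 6 for complexes I to V. These were 48.8, 50, 25, 46.2 and 35.3%, against 11.6% of all genes called higher on that scale. Summed over its nuclear subunits, complex I was 3758, 4397 and 5155 FPKM in ND and 5380, 5518, 5462 and 5707 in HFD, without overlap. The complex II sums were 663, 778 and 909 in ND and 668, 735, 928 and 1042 in HFD, and overlapped.

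**Figure D2:**
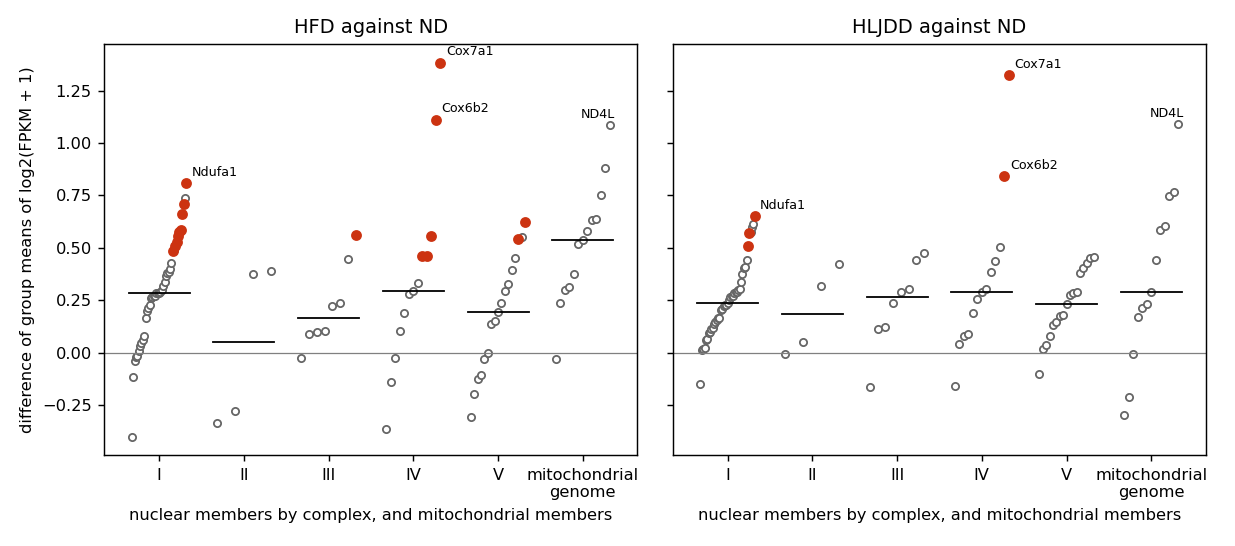
Log2 change of each member by complex and genome for the comparisons between groups, with filled points for an adjusted p under 0.05 and a line at each median. Filled points lie above 0 for HFD against ND and for HLJDD against ND.

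In complex I, the member with the smallest adjusted p was Ndufa1, a small membrane subunit (chrX:37187588-37191238). It measured 105.2, 138.7 and 170.6 FPKM in ND, 266.9, 223.7, 222.5 and 241.3 in HFD, and 209.6, 216.5, 198.4 and 230.6 in HLJDD. All ND libraries lay below all others. The log2 change was 0.81 (SE 0.17) for HFD against ND (limma adjusted p 0.00737) and 0.65 (SE 0.17) for HLJDD against ND (adjusted p 0.0248). Ndufc1, another small membrane subunit, measured 68.7, 77.9 and 98.3 FPKM in ND, 139.2, 126.9, 121.1 and 126.2 in HFD, and 107.5, 127.0, 102.7 and 125.9 in HLJDD. Again no ND library reached another group in FPKM, but after scaling HLJDD replicate 3 (88.3) lay under ND replicate 3 (93.8). Its changes were 0.66 (limma adjusted p 0.0129) and 0.51 (adjusted p 0.0476), the second not called after scaling (adjusted p 0.0696).

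Ndufs8 carries iron-sulfur clusters of the arm that brings electrons to ubiquinone. It was at 62.3, 66.7 and 81.0 FPKM in ND, 99.6, 107.8, 101.7 and 89.8 in HFD, and 89.3, 107.0, 86.7 and 89.0 in HLJDD, with ND lowest throughout. After scaling HLJDD replicate 3 (74.6) lay under ND replicate 3 (77.3). The change was 0.51 for HFD against ND (limma adjusted p 0.0291) and 0.41 for HLJDD against ND (adjusted p 0.0797). Ndufb4, a membrane-arm subunit, rose by 0.58 (limma adjusted p 0.0311), from 111.2, 126.9 and 153.1 FPKM in ND to 245.5, 189.1, 178.1 and 169.2 in HFD. HFD replicate 1 was the highest, and the groups did not overlap. The symbols Ndufb4b and Ndufb4c are counted apart from Ndufb4, and how reads shared by such copies were assigned is not given in the sources used here. Ndufa10, named by the rule in the other comparison, was at 61.4, 70.2 and 77.9 FPKM in ND, 83.1, 102.5, 104.4 and 115.4 in HFD, and 101.6, 97.0, 100.3 and 117.0 in HLJDD. No ND library overlapped another group. Its changes were 0.53 (limma adjusted p 0.0312) and 0.57 (adjusted p 0.0272). The remaining complex I calls, outside the naming rule and listed here after their values were seen, were Ndufb7 (0.56), Ndufa5 (0.71), Ndufv3 (0.58) and Ndufb3 (0.48). Ndufv3 had an adjusted p of 0.0436, and of 0.0515 after scaling.

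Complex II, succinate dehydrogenase, also belongs to the citric acid cycle. Its member with the smallest adjusted p was Sdhc, a membrane anchor, at 161.2, 187.7 and 221.6 FPKM in ND, 211.3, 233.7, 264.8 and 284.7 in HFD, and 277.5, 206.7, 247.7 and 288.4 in HLJDD. Both other groups overlapped ND. The log2 change was 0.39 for HFD against ND (limma adjusted p 0.125), and 0.64 after scaling (adjusted p 0.0201). Sdha, the flavoprotein that oxidises succinate, was at 131.1, 143.1 and 148.1 FPKM in ND and spread widely elsewhere, at 70.7, 93.1, 146.0 and 186.8 in HFD and 178.1, 76.1, 169.9 and 196.4 in HLJDD. Its lowest values were in the libraries of high mitochondrial share.

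In complex III, Uqcrq, a small subunit, was the one called. It measured 112.3, 139.0 and 160.5 FPKM in ND, 234.3, 204.8, 185.2 and 182.6 in HFD, and 168.9, 208.4, 175.1 and 189.6 in HLJDD. In FPKM, ND lay below both other groups, while after scaling HLJDD replicate 3 (150.6) lay under ND replicate 3 (153.1). The change was 0.56 for HFD against ND (limma adjusted p 0.0327) and 0.44 for HLJDD against ND (adjusted p 0.0917). Uqcr11, also small, had log2 differences from ND of 0.45 (adjusted p 0.0657) and 0.47 (adjusted p 0.0665).

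Complex IV had the largest single change, in Cox7a1, the form of subunit VIIa known from heart and skeletal muscle, whose counterpart elsewhere is Cox7a2. Cox7a1 (chr7:30184171-30186030) was at 72.1, 96.2 and 123.2 FPKM in ND, 277.1, 227.3, 233.2 and 262.3 in HFD, and 245.2, 203.2, 227.7 and 286.6 in HLJDD. The lowest library outside ND was well above the highest within it. The log2 change was 1.38 (SE 0.19) for HFD against ND (limma adjusted p 0.000853) and 1.32 for HLJDD against ND (adjusted p 0.00139).

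Cox7a2 was at 273.9, 312.1 and 370.3 FPKM in ND, 243.5, 313.5, 336.2 and 362.3 in HFD, and 354.0, 278.3, 337.0 and 379.0 in HLJDD, so that all 3 groups overlapped. Its change was -0.03 for HFD against ND (limma adjusted p 0.918) and 0.23 after scaling, where the sign turned (adjusted p 0.305). The share of Cox7a1 in the FPKM of the pair, a ratio that scaling does not touch, was 20.8, 23.6 and 24.97% in ND. It was 53.2, 42.0, 41.0 and 42.0% in HFD and 40.9, 42.2, 40.3 and 43.1% in HLJDD. ND was separate from both, and HFD replicate 1 stood above the rest of its group.

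**Figure D3:**
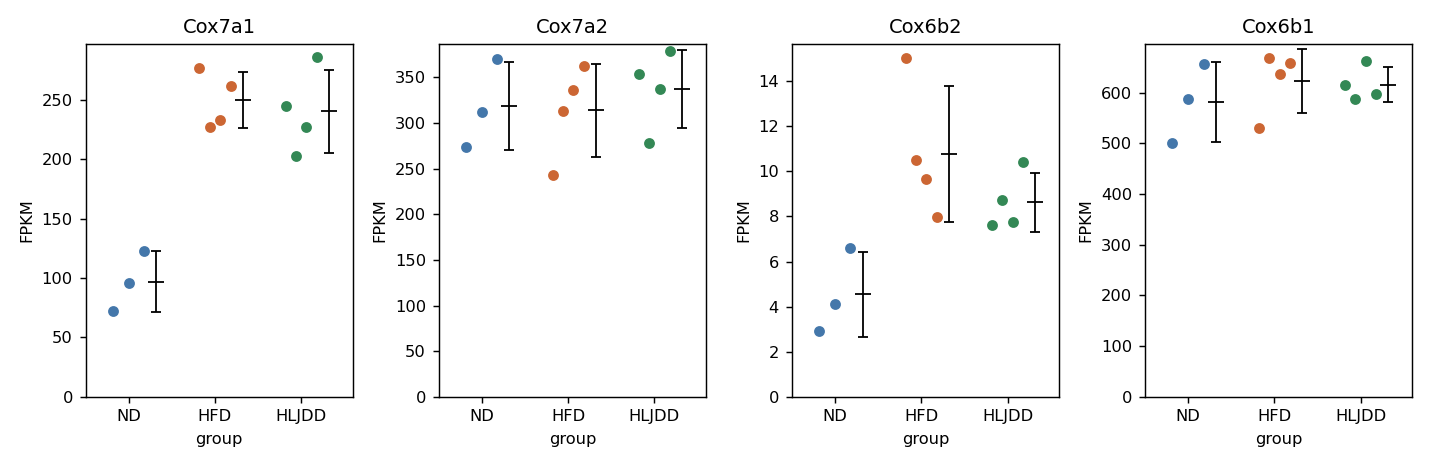
FPKM of the complex IV isoform pairs Cox7a1 and Cox7a2, and Cox6b2 and Cox6b1, with a point per library and a bar at the mean ± SD of each group (n = 3, 4 and 4). Cox7a1 runs from 72.1 to 123.2 in ND and from 203.2 upward elsewhere, while Cox7a2 overlaps between all groups.

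A second isoform pair went the same way at a lower level. Cox6b2, known from testis, was at 2.90, 4.10 and 6.62 FPKM in ND, 15.0, 10.5, 9.64 and 7.97 in HFD, and 7.61, 8.72, 7.74 and 10.4 in HLJDD. ND was lowest throughout, and HFD replicate 1 was highest. The change was 1.11 (SE 0.24) for HFD against ND (limma adjusted p 0.00867) and 0.84 for HLJDD against ND (adjusted p 0.0378, and 0.0517 after scaling). Its counterpart Cox6b1 was at 500.2 to 655.7 FPKM in ND and 530.9 to 667.9 in HFD, overlapping, with a change of 0.10 (adjusted p 0.617). Markers of striated muscle, where Cox7a1 is abundant, summed to 13.1 to 22.5 FPKM in ND, 6.997 to 10.7 in HFD and 10.9 to 14.5 in HLJDD. Of 6 listed, 3 could be tested, and Acta1 was lower in HFD (limma adjusted p 0.0234, and 0.0894 after scaling). The adipocyte markers summed to 9.73 to 13.01, 4.04 to 22.5 and 18.05 to 69.4 FPKM. Of their 5 tested, 0 were called in HFD against ND by limma (2 at an unadjusted p under 0.05, and 1 called after scaling) and 4 were higher in HLJDD than in ND.

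Of the other isoforms, Cox6a1 was called and Cox6a2 was under the mean of 1 FPKM. Cox6a1 was at 411.7, 498.9 and 581.0 FPKM in ND, 644.9, 733.4, 744.0 and 782.9 in HFD, and 731.0, 597.2, 659.7 and 823.4 in HLJDD, with ND lowest. It changed by 0.56 for HFD against ND (limma adjusted p 0.0409). Cox7b, a small subunit, went from 297.0, 327.1 and 364.2 FPKM in ND to 446.8, 496.0, 421.0 and 446.7 in HFD, a change of 0.46 without overlap (limma adjusted p 0.0399). Cox5b was at 269.6, 323.8 and 360.7 FPKM in ND and 408.3, 477.7, 409.6 and 446.4 in HFD, also without overlap, with a change of 0.46 (adjusted p 0.0488). Its partner Cox5a had a log2 difference of -0.14 (adjusted p 0.708), a sign that scaling turned (0.11), as did leaving out single libraries. Cox4i1 and Cox8a, which each have a tissue-restricted partner under the mean of 1 FPKM here, had log2 differences of 0.19 (adjusted p 0.441) and 0.28 (adjusted p 0.189).

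In the ATP synthase, the called members were Atp5j and Atp5h, known as F6 and d, both subunits of the stalk that holds the catalytic head in place. Atp5j was at 111.6, 127.4 and 145.1 FPKM in ND, 210.5, 218.8, 183.3 and 176.4 in HFD, and 160.7, 192.6, 160.6 and 174.0 in HLJDD. Atp5h was at 194.0, 228.6 and 269.4 in ND, 344.5, 336.8, 317.4 and 336.3 in HFD, and 315.3, 311.4, 292.7 and 340.5 in HLJDD. In FPKM, ND lay below both other groups for each. After scaling HLJDD overlapped ND for both, with HLJDD replicate 3 just under ND replicate 3 (138.2 and 138.4 for Atp5j, 251.8 and 257.0 for Atp5h). The changes for HFD against ND were 0.62 (limma adjusted p 0.0144) and 0.54 (adjusted p 0.0232), and for HLJDD against ND 0.43 (adjusted p 0.0779) and 0.46 (adjusted p 0.0543).

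The catalytic subunits Atp5a1 and Atp5b, chosen after their values were seen, overlapped between all groups. Atp5b was at 727.2, 830.8 and 911.0 FPKM in ND, 416.6, 588.2, 802.9 and 975.8 in HFD, and 913.5, 421.7, 940.0 and 945.2 in HLJDD. The lowest libraries were again HFD replicate 1 and HLJDD replicate 2. Ndufs1, the largest complex I subunit, had the same pattern, at 16.8 in HFD replicate 1 and 19.3 in HLJDD replicate 2 against 24.8 to 37.5 FPKM in the other 9 libraries.

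The deviations of members varied with gene length within the libraries of high mitochondrial share, and within others too. The nuclear members had a median length of 764 bases (320 to 3657), against 3266.5 for all tested genes. Across the 83 members, the deviation of HFD replicate 1 from the mean of the other HFD libraries had a Spearman correlation with length of -0.51, and that of HLJDD replicate 2 one of -0.48. HFD replicate 2, of lower mitochondrial share and set against HFD replicates 3 and 4 only, had -0.50. HFD replicates 3 and 4, also set against their group without replicate 1, had 0.41 and 0.46. Over all tested genes the values were -0.08 for HFD replicate 1, -0.08 for HLJDD replicate 2 and -0.02 for HFD replicate 2. The largest over all genes were in ND, 0.32 for replicate 1 and -0.30 for replicate 3. Members share a library and are not independent, so these are descriptions. In HFD against ND, of 16 members under 500 bases 2 were called higher (12.5%, against 9.7% of all genes of that length). Of 33 members from 500 to 1000 bases 9 were called (27.3%, against 14.2% of all genes of that length), and of 25 from 1000 to 2000 bases 6 were called (24.0%, against 7.98%). Of the 9 of 2000 bases or more, 0 were called by limma (against 3.51%), with 1 at an unadjusted p under 0.05 and 2 called by limma-voom and after scaling. When each library was centred on genes of like length, 29 members were higher in HFD and 13 in HLJDD than in ND (backgrounds 13.3% and 10.3%).

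**Figure D4:**
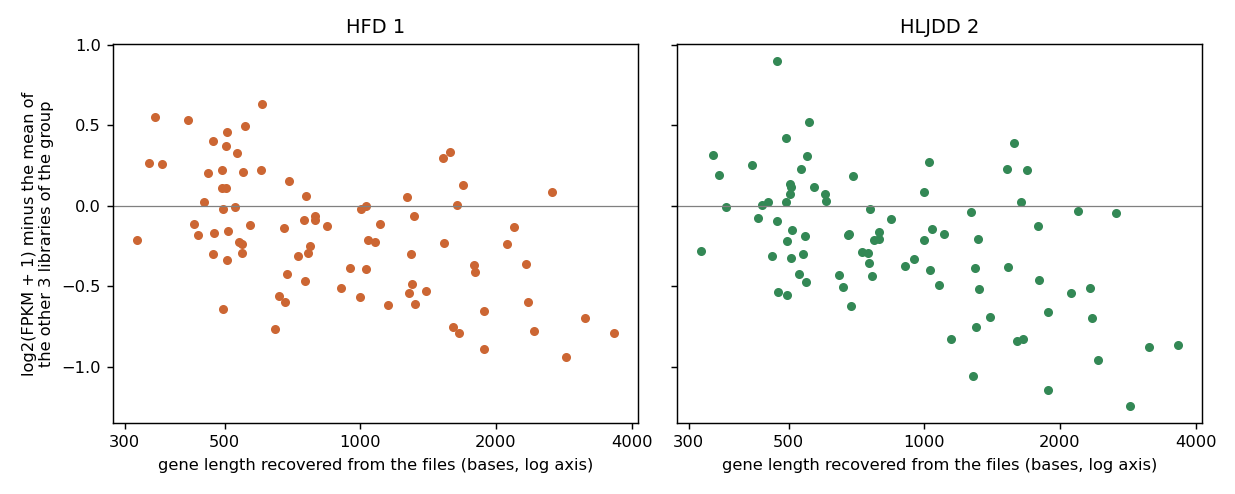
Difference in log2(FPKM + 1) between HFD replicate 1 or HLJDD replicate 2 and the mean of the other 3 libraries of its group, against gene length in bases, for the 83 nuclear members. Sdha (2859 bases) lies lowest in both libraries, and short members such as Atp5e and Ndufa3 lie above 0 in HFD replicate 1, as does Ndufa11 at 2661 bases.

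For HLJDD against ND, which shares its ND libraries with the comparison above, 5 of 83 nuclear members were higher and 0 lower (6.02%, against 4.1% higher and 7.79% lower over all genes, limma with Benjamini-Hochberg adjustment). They were Cox7a1, Ndufa1, Ndufa10, Cox6b2 and Ndufc1, and Cox7a1 alone was called under each of the 21 other settings (adjusted p up to 0.0101). The other 4 lost the call without ND replicate 1 or 2 and without HLJDD replicate 1 or 4. The median change was 0.25 against -0.127 for all genes, and 78 of 83 were positive. For 25 members (30.1%) all HLJDD libraries lay above all ND libraries, against 8.3% of all genes. After median-ratio scaling 12 were called higher (14.5%, against 8.61% higher and 9.18% lower over all genes) and all 83 changes were positive with a median of 0.43. The scaled groups were then separate for 14 members (16.9%), a share near the 17.2% of all genes. The scaled count was 1 without ND replicate 1, 2 without ND replicate 2 or HLJDD replicate 4, 3 and 4 without HLJDD replicates 1 and 2, 7 without HFD replicate 3, 19 without HFD replicate 1 and 38 without ND replicate 3. Without ND replicate 1, ND replicate 2, HLJDD replicate 1 or HLJDD replicate 4, 1 member each was called; without HFD replicate 2 or 3, 3 each; without HLJDD replicate 2, 8.

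The remaining comparison asked whether HLJDD differed from HFD, and 0 of 83 nuclear and 0 of 13 mitochondrial members were called (limma, 0% of all 10764 genes, and 0 by limma-voom). At an unadjusted p under 0.05 there were 1 nuclear member, 0 mitochondrial members and 186 genes in all. The nuclear one was Ndufv3, with a change of -0.36 (unadjusted limma p 0.0489). In no member did the groups separate, against 0.483% of genes separating upward and 0.548% downward (1.89 and 1.71% after scaling, again with no member). Without the 2 libraries of high mitochondrial share 0 members were called, against 0.00929% of genes, and against 0.0186% higher and 0.00929% lower with scaling as well. The median change was -0.01 for nuclear and -0.17 for mitochondrial members, against 0.06 for all genes. The log2 differences of the member named for each complex were -0.16 (Ndufa1), 0.33 (Sdha), 0.07 (Uqcr10), 0.18 (Cox5a) and 0.26 (Atp5a1), with limma adjusted p of 0.999 in each case. Their standard errors ran from 0.14 for Uqcr10 to 0.33 for Sdha. Such a p does not show that the groups were alike.

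The sequences before the start site of 5 members are shown. The 5 are an isoform pair of which one member rose (Cox7a1, Cox7a2), the leading complex I member (Ndufa1), and 2 called members with an NRF1 motif. They come from RefSeq for GRCm38.p6 and run 5′ to 3′ on the gene's own strand. Capitals mark the NRF1 motif (GCGCA and GCGC with any base between) or the SP1 motif (GGGCGG), on either strand. Positions are chr7:30183921-30184143 (plus strand) for Cox7a1, chr9:79759879-79760103 (minus) for Cox7a2, chrX:37191239-37191488 (minus) for Ndufa1, chr5:115348982-115349208 (minus) for Cox6a1 and chr11:115419963-115420169 (minus) for Atp5h.
Cox7a1: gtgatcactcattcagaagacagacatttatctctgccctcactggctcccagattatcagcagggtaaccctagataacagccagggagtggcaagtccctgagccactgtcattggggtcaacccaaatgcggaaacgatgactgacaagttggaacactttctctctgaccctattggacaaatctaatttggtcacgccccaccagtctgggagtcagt
Cox7a2: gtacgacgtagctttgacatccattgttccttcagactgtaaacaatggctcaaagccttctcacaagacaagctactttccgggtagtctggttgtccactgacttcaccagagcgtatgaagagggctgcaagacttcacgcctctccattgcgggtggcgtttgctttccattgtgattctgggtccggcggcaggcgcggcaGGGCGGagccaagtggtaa
Ndufa1: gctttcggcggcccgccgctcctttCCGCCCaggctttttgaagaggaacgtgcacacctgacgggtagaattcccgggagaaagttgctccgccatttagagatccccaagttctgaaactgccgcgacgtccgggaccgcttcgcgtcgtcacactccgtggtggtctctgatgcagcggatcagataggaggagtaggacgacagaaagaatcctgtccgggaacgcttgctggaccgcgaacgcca
Cox6a1: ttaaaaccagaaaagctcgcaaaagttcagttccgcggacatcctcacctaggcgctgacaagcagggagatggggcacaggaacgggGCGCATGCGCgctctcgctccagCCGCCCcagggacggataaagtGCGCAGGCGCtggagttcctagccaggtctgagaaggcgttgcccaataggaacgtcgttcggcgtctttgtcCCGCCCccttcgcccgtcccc
Atp5h: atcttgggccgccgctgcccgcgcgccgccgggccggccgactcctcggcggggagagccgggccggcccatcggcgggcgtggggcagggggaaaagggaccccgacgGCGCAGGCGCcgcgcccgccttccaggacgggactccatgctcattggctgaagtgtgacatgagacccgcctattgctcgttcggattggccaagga
The Cox7a1 stretch held none of the motifs, Cox7a2 and Ndufa1 held SP1, Cox6a1 held NRF1 and SP1 at 2 positions each, and Atp5h held NRF1. The last bases before the RefSeq start are not shown, 27 for Cox7a1, 25 for Cox7a2, 23 for Cox6a1 and 43 for Atp5h. In that part the ETS motif CCGGAAG, counted below, stood at -16 in Cox6a1 and at -38 in Atp5h.

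In the RefSeq table, 69 of 83 nuclear members had a promoter. In the 250 bases before the start, on both strands, NRF1 letters stood in 13 of 69 (18.8%), against 4.23% of the 27025 genes in the table. The ETS motif CCGGAAG stood in 12 (17.4%, against 7.83%), and SP1, which can overlap others, in 25 (36.2%, against 35.4%). YY1 (AAGATGGC) was in 1 (1.45%, against 1.83%), the ESRRA motif TCAAGGTCA in 1 (1.45%, against 0.422%) and MEF2 (CTA and TAG with 4 bases of any kind between) in 1 (1.45%, against 3.7%). NRF1 and ETS factors are known regulators of nuclear respiratory genes. NRF1 letters stood in 4 of the 16 members called in HFD against ND that had a promoter and in 9 of the other 53, and ETS letters in 4 of 16 and 8 of 53. A match is a description of the letters and not a bound site.

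The mitochondrial genome encodes core subunits of complexes I, III, IV and V on long transcripts that are cut into single messages. None of the 13 was called in HFD against ND (limma, 0 of 13, with 1 at an unadjusted p under 0.05, 0 by limma-voom). The median change was 0.54, and 12 of 13 were positive, and without HFD replicate 1 and HLJDD replicate 2 it was 0.17 with 11 positive. All HFD libraries lay above all ND libraries for 3 (23.1%, background 9.57% as above), which were ND4, ND4L and COX1. In HLJDD against ND 0 of 13 were called (limma, 1 at an unadjusted p under 0.05, 0 by limma-voom), the median was 0.29 with 10 of 13 positive, and only ND4L separated (7.69%, background 8.3%). That median turned to -0.18, with 6 of 13 positive, without the 2 libraries, and it did so without HLJDD replicate 2 alone. With median-ratio scaling of all libraries 13 and 11 were positive.

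Much of the spread lay in the libraries of high mitochondrial share. The ratio of mitochondrial to nuclear summed FPKM was 7.07, 4.98 and 4.01 in ND, 12.1, 6.75, 5.56 and 4.07 in HFD, and 4.26, 16.1, 3.53 and 4.02 in HLJDD. HLJDD replicate 2 was the highest of its group for 13 of 13 transcripts, by 2.94 times the mean of the others for ND4L to 6.57 times for COX2. HFD replicate 1 was the highest of its group for 9 of 13, from 0.923 times the others for ATP6 to 3.39 times for COX3. In ND, replicate 1 was the highest for 12 of 13, while it was the lowest for every nuclear member. The summed FPKM of the 2 genomes ran in opposite order across the ND libraries.

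**Figure D5:**
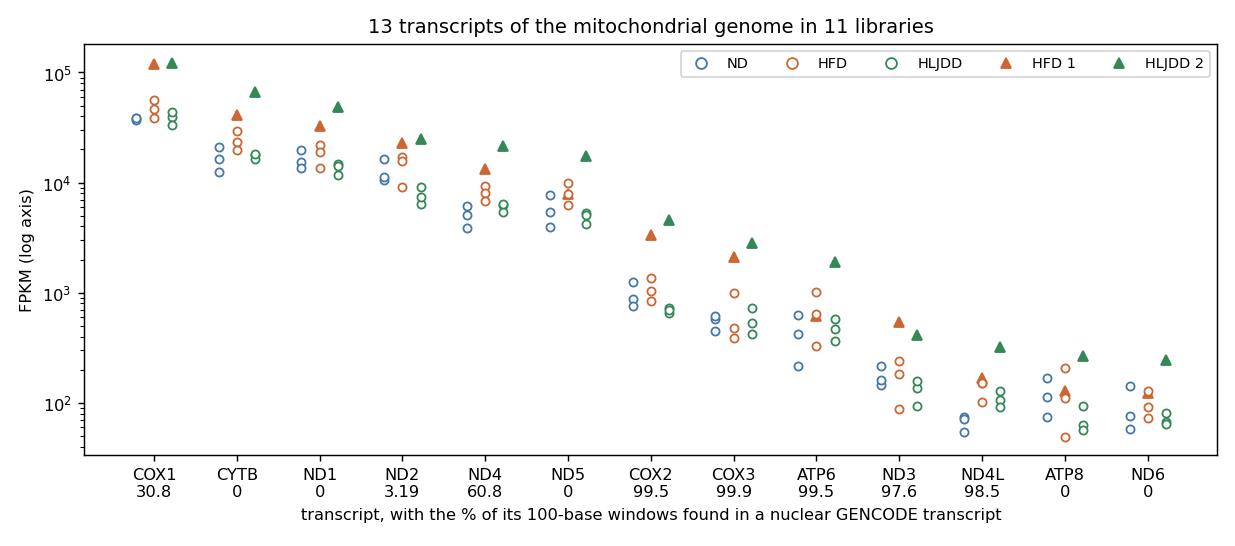
FPKM of the 13 mitochondrial transcripts on a log axis, one point per library, with triangles for HFD replicate 1 and HLJDD replicate 2. HLJDD replicate 2 is the highest HLJDD library for all 13.

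ND4L, a small core subunit of complex I, was at 74.2, 71.1 and 54.5 FPKM in ND, 169.6, 150.1, 102.3 and 152.2 in HFD, and 106.5, 319.8, 91.8 and 128.0 in HLJDD. No ND library overlapped another group. The change was 1.08 (SE 0.35) for HFD against ND (limma adjusted p 0.0549) and 1.09 for HLJDD against ND (adjusted p 0.0664). Without HFD replicate 1 and HLJDD replicate 2 they were 1.00 (adjusted p 0.00632, 9.41% of all genes called higher) and 0.70 (adjusted p 0.0295, 11.9%).

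ND4, read from the same transcript and overlapping ND4L by 7 bases, was at 6085, 5043 and 3906 FPKM in ND, 13326, 9411, 8000 and 6808 in HFD, and 6325, 21662, 5385 and 6346 in HLJDD. HFD stood above ND, and HLJDD overlapped it. The change was 0.88 for HFD against ND (limma adjusted p 0.151), and 0.70 (adjusted p 0.0231) without those libraries. Within the mitochondrial reads, whose total then no longer matters, ND4 took 4.82 to 5.83% in ND, 5.66 to 7.40% in HFD and 6.77 to 7.33% in HLJDD. ND4L took 0.0145 to 0.0176%, 0.0155 to 0.0356% and 0.0233 to 0.0294%. ND2, an earlier gene on the genome, went the other way, at 9.17 to 11.9% in ND, 7.29 to 10.3% in HFD and 5.95 to 7.54% in HLJDD. For these 3, chosen after their values were seen, HLJDD did not overlap ND.

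COX1, the catalytic subunit of complex IV, took a mean of 48.5% of the mitochondrial reads and was at 38326, 37148 and 38308 FPKM in ND, 120231, 56021, 46165 and 38651 in HFD, and 39789, 122697, 33116 and 43837 in HLJDD. Its ND values were close together, and HFD replicate 4 lay just above them. CYTB, the mitochondrial subunit of complex III, was second in mean FPKM at 25608, and ND6, the one message from the other strand, the lowest at 104.

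Copies of mitochondrial sequence in the nuclear genome limit the order of these levels. In the GENCODE annotation of GRCm38, over 90% of the 100-base windows of COX2, COX3, ATP6, ND3 and ND4L are found letter for letter in nuclear pseudogenes on chromosome 1, such as Gm10222 for ND4L (98.5%; chr1:24612407-24612700). These 5 had mean FPKM of 129 to 1461. The 6 with under 5% of windows copied had 104 to 25608, and ND4 (60.8%) and COX1 (30.8%) had 8391 and 55845. The copies' symbols were not in the deposited table. How reads that fit several places were handled, and whether strand was used, is not given in the sources used here, and the part of the copies in these levels was not tested. ND5 and ND6 overlap by 14 bases on opposite strands, and ATP8 and ATP6 by 43.

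Genes that serve the respiratory chain were counted from lists by role. In HFD against ND, 4 of 50 assembly factors were higher (8%, against 5.06% of all genes, and 12% against 11.6% after scaling) and 0 lower (against 11.5%), with a median log2 change of -0.08. The shares called higher in the lists below ran from 0% of import genes to 12.5% of inner membrane carriers, of which 12.5% were also lower. They were 5.56% for electron carriers and coenzyme Q genes, 3.85% for ribosomal proteins and 5.26% for the citric acid cycle. After scaling they ran from 12.5% (import) and 12.8% (ribosomal proteins) to 33.3% (electron carriers and coenzyme Q) and 45.5% (peroxide defence), against 11.6% of all genes. Of the assembly factors, Uqcc3, needed to assemble complex III, changed by 0.60 (limma adjusted p 0.0111), Coa6, for complex IV copper centres, by 0.53, and Higd1a, a respiratory complex partner, by 0.54. In HLJDD against ND none of the 50 was called by limma (5 at an unadjusted p under 0.05, and 4 called after scaling). Of 18 electron carriers and coenzyme Q genes, Coq10b, a coenzyme Q binding protein, was higher in HFD (0.81, adjusted p 0.0163).

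Of 13 regulators tested, 1 was called higher and 1 lower in HFD against ND (7.69% each, against 5.06% and 11.5% of all genes). In HLJDD against ND 0 were higher and 2 lower (15.4%, against 7.79% of all genes). After scaling 15.4% were higher in each comparison, against 11.6% and 8.61% of all genes. Ppard, a nuclear receptor for fatty acids, was lower in HFD than in ND (-1.10, limma adjusted p 0.00222) and lower in HLJDD than in ND (-0.75, adjusted p 0.0185). Tfeb, a lysosome and mitochondria regulator, was higher in HFD (0.54, adjusted p 0.0115), and Sirt1, a deacetylase, was lower in HLJDD (-0.64, adjusted p 0.0236, and 0.0526 after scaling). The coactivators Ppargc1a and Ppargc1b had log2 differences of -0.27 and 0.01 in HFD against ND, and the factors Esrra, Nrf1 and Gabpa by -0.10, -0.21 and -0.26, none of them called (smallest adjusted p 0.192). Esrra turned to 0.16 under scaling. Of 30 genes that copy and process the mitochondrial genome, Fastkd2, an RNA-binding protein, was lower in HFD (-0.72, adjusted p 0.048), while Tfam, which packs mitochondrial DNA, and Polrmt, its RNA polymerase, had differences of -0.32 (adjusted p 0.287) and -0.07 (adjusted p 0.764).

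Called shares of the other mitochondrial lists, given above, lay on both sides of the 5.06% of all genes called higher in HFD against ND. Of 78 ribosomal proteins, Mrps15 (1.00, limma adjusted p 0.000948), Mrpl54 (0.83) and Mrps36 (0.63) were higher in HFD than in ND and 1 was lower, Mrpl3. Mrps15 (0.84) and Mrpl54 (0.72) were also higher in HLJDD than in ND. Of 19 citric acid cycle genes, Mdh2, the mitochondrial malate dehydrogenase, was higher in HFD (1.00, adjusted p 0.0241) and HLJDD (1.01, adjusted p 0.0273), with mean FPKM of 566 in ND. Of 16 inner membrane carriers and related genes, Atpif1, the inhibitor of the ATP synthase, was higher in HFD (0.64, adjusted p 0.019) and HLJDD (0.54, adjusted p 0.0476). Slc25a4, an ADP and ATP exchanger, was lower in HFD (-1.26, adjusted p 0.0277) and HLJDD (-1.54, adjusted p 0.0129). Ucp2, an inner membrane carrier, was higher in HFD, and Slc25a12, an aspartate and glutamate carrier, lower. The median log2 changes for HFD against ND were -0.06 for the ribosomal proteins, -0.15 for the citric acid cycle and -0.03 for the carriers. All lay above the -0.205 of all genes and below the 0.28 of the nuclear members, and after scaling they were 0.18, 0.10 and 0.22.

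Of 32 import genes, 0 were called in HFD against ND by limma (6 at an unadjusted p under 0.05, and 4 called after scaling) and 2 parts of the inner membrane import machinery, Timm9 and Pam16, were higher in HLJDD than in ND (Pam16 with an adjusted p of 0.0417, and 0.0517 after scaling). Among 11 peroxide defence genes, Gpx4, which reduces lipid peroxides, was higher in HFD (0.78) and Gsr, glutathione reductase, lower (-2.47). Among 20 glycolysis genes Hk2, a hexokinase, was lower in HFD (-0.75). Of 17 for mitophagy and shape, Fundc1, a mitophagy receptor (-0.89), and Mfn1, a fusion protein (-0.62), were lower in HFD. After scaling 5 glycolysis genes were higher in HFD than in ND and 1 lower (25% and 5%). For mitophagy and shape 5 were higher and 2 lower (29.4% and 11.8%), against 11.6% and 11.4% of all genes. In HLJDD against ND, Gpx4 (0.76) and the glycolysis gene Gapdh (0.77) were called higher, and Gsr (-2.03) and Fundc1 (-0.86) lower. In HLJDD against HFD all of these lists had 0 calls by limma, 1 gene (in mitophagy and shape) at an unadjusted p under 0.05, and 0 after scaling.

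Mature enterocyte markers were split. They summed to 27865 to 47558 FPKM in ND, 59288 to 66655 in HFD and 41755 to 66571 in HLJDD, and 3 of 12 were called higher in HFD than in ND, Apoa4, Fabp1 and Alpi, of which the first 2 are also in the proximal list. None was called lower, but 6 of 12 differences were negative, the groups separated upward for 3 and downward for 3, and 1 was called lower after scaling. Smooth muscle markers summed to 474 to 669, 176 to 652 and 196 to 491 FPKM, with 0 of 8 called by limma in HFD against ND (0 at an unadjusted p under 0.05, and 0 after scaling). Goblet cell markers summed to 1269 to 2291, 4190 to 4711 and 3072 to 3990 FPKM, with 3 of 7 higher in HFD than in ND. Plasma and B cell markers summed to 37.8 to 64.6, 125 to 278 and 112 to 296 FPKM, with ND below both other groups. All 6 of their differences were positive in HFD against ND, with a median log2 change of 2.23. By limma 1 was called, 6 were at an unadjusted p under 0.05, and 3 were called after scaling. Their part in the members' differences was not tested.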

How the data were processed

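Total RNA was extracted with TRIzol and the VAHTS Universal V6 kit was used for the libraries, per the labels' protocols. The authors deposited FPKM values, made with fastp, HISAT2, HTSeq and R 3.2.0 on mm10, per the submitters' processing notes; neither annotation, strand setting nor treatment of multiple matches is given in the sources used here. Whole reads were recovered from the FPKM steps for 24294 of 24294 symbols (largest distance 0.0013 reads) and gave the depth, 30100481 to 37940645 reads per library.

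The 10764 genes that reached 1 FPKM in 3 or more libraries were fitted as log2(FPKM + 1) with limma 3.58.1 in R 4.3.3 (variance trend, 11 libraries in one fit), two-sided, Benjamini-Hochberg adjusted over all of them at 0.05. Fold changes are on that scale, which understates low genes. In simulated HFD and ND data, 70 of 100 genes changed by 1 log2 unit and 96 of 100 changed by 2 were recovered, with 8 others called. Promoters came from RefSeq and mitochondrial copies from GENCODE transcripts. Named members were, for each comparison and complex, up to 4 called ones by adjusted p, or else the one of smallest adjusted p, with the complex IV isoform pairs and all mitochondrial members. From the other lists up to 3 called genes were named, with set regulators. Further names were chosen after their values were seen. The members and lists were chosen with earlier results of these data known. Alternatives were the pseudocount, filter, scaling, weights, samples in the fit, limma-voom on recovered reads, a replicate block, and libraries left out.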

Additional observations from a re-analysis of the deposited data

Results flagged for a closer look

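Of 82 groups of 4 libraries checked for a value far from the others, 17 held one. Chance gives about 1 in 20 for independent groups, but these share libraries and are not independent. Of the flags, 1 fell on HFD replicate 1 and all others on HLJDD replicate 2. In HLJDD replicate 2, 14 values stood high. Its mitochondrial reads were 40.7% of the total (10.4 to 12.9% in the other HLJDD libraries) and its ratio of mitochondrial to nuclear FPKM was 16.1 (3.53 to 4.26). Among complex I messages of the mitochondrial genome, ND1 was at 49008 FPKM, ND2 at 25093, ND4 at 21662, ND4L at 319.8, ND5 at 17544 and ND6 at 244.2. The complex IV messages COX1, COX2 and COX3 were at 122697, 4552 and 2847, ATP6 was at 1885, and CYTB at 66348. In the other HLJDD libraries COX2 was at 652 to 734 and CYTB at 16285 to 18157. The nuclear member Ndufs8 was at 107.0 FPKM there, against 86.7 to 89.3.

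The same library stood low for Atp5a1, at 353.5 FPKM against 664.5 to 727.2, and for Cox4i1, at 780.1 against 1038 to 1069. In HFD replicate 1, the Cox7a1 share of the Cox7a1 and Cox7a2 pair was 53.2%, against 41.0 to 42.0% in the other HFD libraries.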

How the results depend on the processing

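No called value changed sign. Among values that were not called, the mitochondrial median for HLJDD against ND (0.29) turned to -0.18 without HLJDD replicate 2, also when HFD replicate 1 was left out with it, to -0.11 with scaling as well, and to -0.05 with library weights. The medians for HLJDD against HFD, all near 0 for nuclear members, and the differences of Cox5a, Cox6b1, Cox7a2 and Uqcr10 also turned under some settings. The nuclear count for HFD against ND (17) was 9 with no filter, 36 with median-ratio scaling, 32 with equal sums without mitochondrial transcripts, 62 with library weights (0.0874 to 10.1) and 39 with limma-voom. It was 29 without HFD replicate 1 and HLJDD replicate 2, and 2 to 24 when single libraries were left out. The count for HLJDD against ND (5) was, in the same order, 3, 12, 19, 71 and 15, then 17 without those libraries and 1 to 8, and 3 with only the compared groups in the fit. Of these, 12, 19, 15 and 17 were 14.5, 22.9, 18.1 and 20.5% of members, against 8.61, 8.05, 8.9 and 11.9% of all genes called higher. With limma-voom the HFD against ND share was 47%, against 11.6% of all genes. The mitochondrial count for HFD against ND (0) was 7 with weights, 2 with only the compared groups and 2 without those libraries (0 to 2 leaving out single ones). For HLJDD against ND (0) it was 2 with weights and 1 without those libraries (0 to 1). For HLJDD against HFD, weights gave 15 nuclear and 7 mitochondrial calls, and leaving out single libraries 0 of each. The weights were 8.70 for ND replicate 2, 8.10 for HFD replicate 3 and 10.1 for HLJDD replicate 1, and at most 0.889 for any other library. The weighted fit thus rests largely on a single library of each group. The share of all genes it called is not given here, and no conclusion is drawn from the weighted counts.

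Alternatives chosen after seeing the data joined scaling with the left-out pair or centred on length. For HFD against ND, equal sums without the pair gave 38 nuclear and 2 mitochondrial calls, scaling without it 30 nuclear and 3 mitochondrial, and length centring 29 nuclear. For HLJDD against ND they gave 20 nuclear with equal sums, 1 mitochondrial with either, and 13 nuclear with length centring. The scaled counts of 36 and 12 ran from 4 to 55 and from 1 to 38 leaving out single libraries. The lowest were without ND replicate 1 and the highest without ND replicate 3. Without the pair the second was 7 (8.43%, below the 11.1% of all genes called higher) and the first 30 (36.1%, against 11.7%). Without HFD replicates 1 and 3 in turn the first was 16 and 22.

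Libraries of the same number did not deviate together (correlations from -0.219 to 0.366), so the numbers were not taken to pair them. With the replicate block the nuclear counts were 5 and 1, the scaled ones 9 and 3, and 1 mitochondrial member was called in HFD against ND. The causes of these shifts were not tested. Of the medians, 126 stayed within their spread and 6 moved. Of the values of named members, 698 kept their side of the threshold, 45 gained a call and 93 lost one, most often without ND replicate 1 or 2. Depth limits the lowest members: Ndufb4c had as few as 10 reads in a library, and Cox6b2 at least 62.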
